A study of Mus musculus with 12 samples.

Results

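The Serpina3 cluster is a run of related protease inhibitor genes on mouse chromosome 12, and 10 of its genes were followed in ear skin of germ-free (GF) and specific-pathogen-free (SPF) mice. The members were taken by symbol, namely Serpina3a, Serpina3b, Serpina3c, Serpina3f, Serpina3g, Serpina3h, Serpina3i, Serpina3j, Serpina3m and Serpina3n, and make up 10 of the 24532 genes in the deposited table. They were selected on measured values, chosen because Serpina3b and Serpina3j were far lower after MC903 than after ethanol, so MC903 against ethanol is a description, with no p for any member and counts of calls that support nothing. The comparisons between housings were tested for the other members, while Serpina3b and Serpina3j, whose libraries all entered the differences they were picked for, are described there without a test.

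Serpins are suicide inhibitors. A protease cuts an exposed reactive loop of the serpin and is then trapped by it, so the loop decides which protease is inhibited. In humans SERPINA3 (alpha-1-antichymotrypsin) is the lone gene of its kind, whereas in mice it has been duplicated into a cluster whose members differ mostly in that loop. Serpina3n is the secreted mouse inhibitor of granzyme B, cathepsin G and leukocyte elastase and an acute phase gene, and Serpina3g (Spi2A) is an interferon-induced inhibitor of cathepsins inside cells of the immune system.

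The study compared 4 groups of 3 libraries of bulk RNA from ear skin: GF mice given MC903, SPF mice given MC903, GF mice given ethanol and SPF mice given ethanol. MC903 (calcipotriol) is a vitamin D analogue that inflames mouse skin in a way that resembles atopic dermatitis, ethanol is its vehicle, and the labels give 5 applications in words that do not settle their spacing. The strain is C57BL/6 in the labels of 9 libraries, while it reads C57BL/7 for GF MC903 4, C57BL/8 for GF ethanol 5 and C57BL/9 for GF MC903 5. These numerals rise by 1 over the last 3 samples listed, and the labels alone cannot tell a difference of strain from a slip in filling in the list. Whether each library stands for its own mouse is not in the labels. A p-value here therefore reflects the scatter among the 3 libraries of a group, which can be technical, and housing cannot be told apart from anything else that differed between the GF and SPF mice. Library depth ran from 36358294 to 48225425 estimated counts. The label of skin was borne out by keratinocyte markers, of which none was at 0 in any group and whose summed level was 29000 to 70400 CPM (counts scaled to a common library size after TMM adjustment), while 10 liver markers, a tissue where several Serpina3 genes are abundant, summed to 1.07 to 5.19 CPM. In bulk RNA, fewer cells of a type and less RNA per cell cannot be told apart.

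The locus spans 302 kb in RefSeq's annotation of GRCm38.p6, the build that mm10 names. Of the 14 Serpina3 genes annotated there, the members lie in the order Serpina3a (104112724 to 104121896), Serpina3b (104127986 to 104139546), Serpina3c (104146907 to 104153929), Serpina3f (104214544 to 104221129), Serpina3g (104236147 to 104241939), Serpina3h (104247896 to 104254405), Serpina3i (104263045 to 104269509), Serpina3j (104300722 to 104320586), Serpina3m (104387157 to 104394259) and Serpina3n (104406646 to 104414334). Serpina3h is annotated as a transcribed pseudogene and the other members as protein coding. Since the copies are alike, each member's longest GENCODE transcript was compared with the transcripts of all other mouse genes. In windows of 100 bases, all of Serpina3b and Serpina3j was unique to its own gene. The shares were 95.4% for Serpina3g, 95.8% for Serpina3h, 97.7% for Serpina3i and 93.9% for Serpina3m, and in windows of 50 bases that of Serpina3h was 75.6%, with most shared windows in Serpina3i. No source used here states what was done with reads that match several copies, so the split of counts among Serpina3f, Serpina3g, Serpina3h and Serpina3i is less certain than that of Serpina3b, Serpina3j and Serpina3n.

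RefSeq start windows, from 250 bases before to 50 after the annotated start, were found for 8 of the 10 members. Those of Serpina3b (chr12:104127746-104128045, plus strand), Serpina3j (chr12:104314320-104314619, plus), Serpina3g (chr12:104235897-104236196, plus), Serpina3i (chr12:104262872-104263171, plus), Serpina3c (chr12:104153823-104154122, minus) and Serpina3n (chr12:104406458-104406757, plus) are shown because these genes moved differently from each other in the libraries below. The window of Serpina3j lies inside the gene's annotated span, so it does not cover the most upstream annotated start. The starts used for Serpina3b, Serpina3c, Serpina3i and Serpina3n also lie inside the annotated spans given above, downstream of the first annotated base. Capitals mark the longest stretch, of 12 bases, that is shared by at least 6 member windows.
Serpina3b: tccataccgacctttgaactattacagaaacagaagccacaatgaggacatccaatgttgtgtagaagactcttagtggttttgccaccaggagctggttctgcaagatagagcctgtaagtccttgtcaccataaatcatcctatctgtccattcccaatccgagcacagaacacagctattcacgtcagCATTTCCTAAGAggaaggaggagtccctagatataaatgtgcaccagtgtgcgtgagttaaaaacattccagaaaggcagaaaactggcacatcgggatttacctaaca
Serpina3j: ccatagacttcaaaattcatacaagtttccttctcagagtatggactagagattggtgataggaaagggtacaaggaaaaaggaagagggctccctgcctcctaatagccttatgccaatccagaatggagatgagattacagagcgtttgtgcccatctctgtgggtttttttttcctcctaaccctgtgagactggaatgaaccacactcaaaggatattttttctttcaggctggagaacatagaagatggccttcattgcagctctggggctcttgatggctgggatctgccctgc
Serpina3g: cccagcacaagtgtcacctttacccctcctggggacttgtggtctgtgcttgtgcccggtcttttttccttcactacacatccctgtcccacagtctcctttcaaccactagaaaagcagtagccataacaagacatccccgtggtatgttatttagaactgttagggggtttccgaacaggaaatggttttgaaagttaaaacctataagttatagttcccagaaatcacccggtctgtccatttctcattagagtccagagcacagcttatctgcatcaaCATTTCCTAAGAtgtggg
Serpina3i: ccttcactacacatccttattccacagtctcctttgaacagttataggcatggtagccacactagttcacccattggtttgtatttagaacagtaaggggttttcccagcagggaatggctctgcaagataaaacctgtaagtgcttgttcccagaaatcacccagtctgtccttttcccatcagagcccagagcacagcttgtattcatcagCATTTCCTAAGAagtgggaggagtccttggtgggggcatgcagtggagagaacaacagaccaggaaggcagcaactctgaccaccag
Serpina3c: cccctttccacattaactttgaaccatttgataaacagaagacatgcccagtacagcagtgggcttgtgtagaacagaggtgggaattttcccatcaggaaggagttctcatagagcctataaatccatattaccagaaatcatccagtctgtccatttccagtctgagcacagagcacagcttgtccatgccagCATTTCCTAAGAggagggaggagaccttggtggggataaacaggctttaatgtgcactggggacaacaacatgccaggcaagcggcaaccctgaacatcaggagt
Serpina3n: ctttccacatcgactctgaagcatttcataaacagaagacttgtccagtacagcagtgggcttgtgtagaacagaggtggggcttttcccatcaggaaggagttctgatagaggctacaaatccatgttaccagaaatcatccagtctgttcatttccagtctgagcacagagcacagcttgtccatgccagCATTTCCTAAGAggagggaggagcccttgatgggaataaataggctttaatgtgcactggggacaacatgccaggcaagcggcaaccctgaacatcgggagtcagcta
The stretch CATTTCCTAAGA began 59 bases before the annotated start of Serpina3b, 55 before that of Serpina3c, 58 before that of Serpina3n, 65 before that of Serpina3f and 37 before that of Serpina3i. In Serpina3g it lay 32 bases after the annotated start. These distances are from the start that each window uses. In Serpina3c, Serpina3i and Serpina3n the stretch also lies inside the annotated gene span, so the distances do not set Serpina3g apart. The stretch stood in 6 of the 8 member windows, and the search required at least 6. On either strand it stood in 12 (0.0365%) of all 32851 mouse windows, which include those of the members. No enrichment is read from these counts. The windows of Serpina3a and Serpina3j did not hold it. The windows of Serpina3c and Serpina3n were the most alike, with 93.5% identity over 294 aligned bases, and that of Serpina3b was 79.9% identical to that of Serpina3c. Of motifs searched on both strands, the STAT motif TTCNNNGAA stood in the windows of Serpina3f, Serpina3g and Serpina3i and in 8.3% of all windows. The glucocorticoid receptor motif stood in those of Serpina3c and Serpina3n and in 0.475% of all windows, and it was searched as its palindromic consensus. A vitamin D receptor half-site, AGTTCA, stood in those of Serpina3b, Serpina3f and Serpina3i and in 14% of all windows, while the half-site AGGTCA stood in no member window and in 16.3% of all. The C/EBP motif TTGCNNCAA, the AP-1 motif TGANTCA and the NF-kB consensus had no match in a member window and matches in 2.08%, 7.81% and 0.155% of all windows. The TATA box letters TATAAA stood in the windows of Serpina3a, Serpina3b, Serpina3c and Serpina3f, and in 13.6% of all.

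Levels between genes are compared per length, in the authors' deposited FPKM values (fragments scaled to gene length and library depth). Serpina3n led with MC903, at 33.4 ± 4.08 FPKM in GF skin and 34.2 ± 5.92 FPKM in SPF skin (SD, n = 3 throughout). With ethanol Serpina3b led, at 93.1 ± 15.4 FPKM in GF skin and 56.6 ± 9.33 FPKM in SPF skin, ahead of the pseudogene Serpina3h at 58.4 ± 7.18 FPKM in GF skin and 43.1 ± 7.82 FPKM in SPF skin. Serpina3n then followed at 28.2 ± 1.59 FPKM in GF ethanol skin and 25.4 ± 4.16 FPKM in SPF ethanol skin. Serpina3j stood next, at 24.9 ± 2.48 FPKM in GF ethanol skin and 15.9 ± 4.7 FPKM in SPF ethanol skin, and its range overlapped that of Serpina3n in GF and in SPF ethanol libraries. Serpina3c, Serpina3g and Serpina3i lay between 1.89 and 6.38 FPKM in ethanol libraries, with overlap of Serpina3c and Serpina3g in GF skin and of Serpina3g and Serpina3i in SPF skin. Serpina3f and Serpina3m stayed under 0.7 FPKM in every library and overlapped each other in all 4 groups. Serpina3a was at 0 counts in all 12 libraries, so it passed no filter and 9 members were tested.

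With MC903 the order below Serpina3n differed between housings. In GF MC903 skin Serpina3h was next at 16.5 ± 2.56 FPKM, followed by Serpina3b at 3.12 ± 0.66, Serpina3c at 2.4 ± 0.489, Serpina3i at 2.21 ± 0.11 and Serpina3g at 1.55 ± 0.245 FPKM, where the libraries of Serpina3c overlapped those of Serpina3b and of Serpina3i and touched those of Serpina3g. In SPF MC903 skin Serpina3c at 2.42 ± 0.688 FPKM and Serpina3h at 2.28 ± 0.785 FPKM overlapped. Serpina3i, at 0.739 ± 0.0973 FPKM, and Serpina3g, at 0.398 ± 0.143 FPKM, followed there without overlapping. Serpina3b stood at 0.166 ± 0.0435 FPKM in SPF MC903 skin, below the mean of Serpina3f and of Serpina3m, though its libraries overlapped those of Serpina3m. Serpina3j had the lowest mean of the expressed members with MC903 in both housings.

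**Figure D1:**
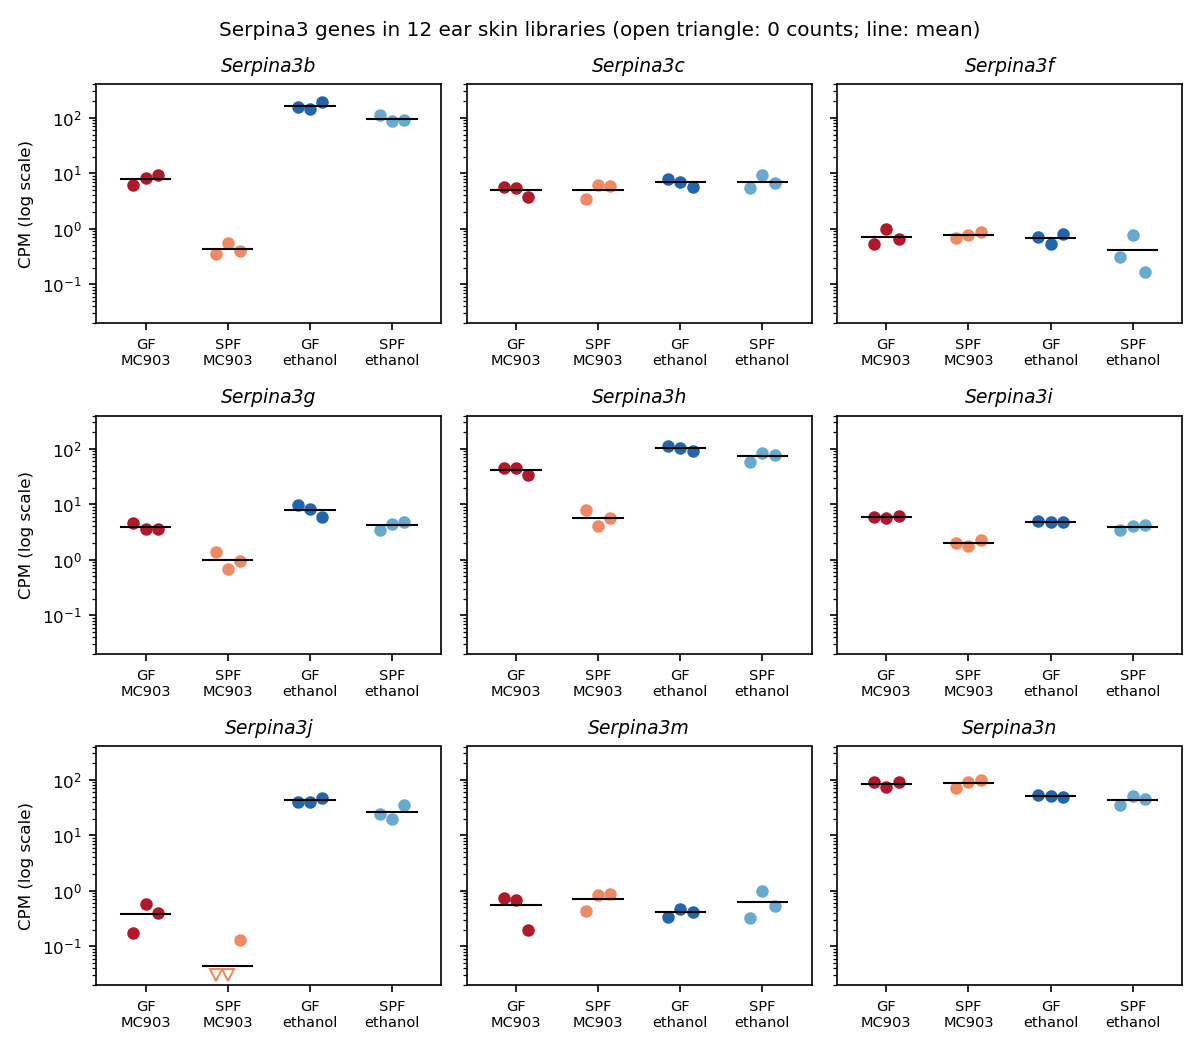
CPM on a log axis of the 9 expressed Serpina3 genes in each of 12 libraries, by group, with the mean of 3 libraries as a line and libraries at 0 counts as open triangles. Serpina3b lies between 6.24 and 9.51 CPM in GF MC903 libraries and between 0.35 and 0.566 CPM in SPF MC903 libraries, whereas Serpina3n lies above 70 CPM in both.

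Serpina3b and Serpina3j, the members picked for their difference between treatments, stood as follows. Serpina3b had 6.24, 8.23 and 9.51 CPM in GF MC903 libraries 1, 4 and 5, against 158, 144 and 195 CPM in GF ethanol libraries. It had 0.35, 0.566 and 0.395 CPM in SPF MC903 libraries 1, 2 and 3, against 114, 87.7 and 90.3 CPM in SPF ethanol libraries. Every MC903 library was thus below every ethanol library, and every SPF MC903 library below every GF MC903 library. The fitted log2 change of MC903 against ethanol was -4.38 (SE 0.18) in GF skin and -7.79 (SE 0.24) in SPF skin, or 20.8-fold and 221-fold lower.

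Serpina3j was at or near the limit of detection after MC903. It had 6, 21 and 14 counts in GF MC903 libraries, against 2019, 1918 and 2265 counts in GF ethanol libraries. It had 0, 0 and 4 counts in SPF MC903 libraries, against 1278, 972 and 1890 counts in SPF ethanol libraries. Its only counts in SPF MC903 skin came from library 3. A count of 0 in a library allows up to 3 counts, for counting error only. At the depths of the 3 SPF MC903 libraries that is 0.0749 to 0.0987 CPM, where the upper value belongs to library 3, which was not at 0. The fitted log2 change was -6.78 (SE 0.37) in GF skin and -9.38 (SE 0.5) in SPF skin. On pooled counts the SPF ethanol level was 728 times the SPF MC903 level, with a 95% exact Poisson interval of 284 to 2670. Without SPF MC903 library 3 the group had 0 counts and the SPF MC903 level was at least 701-fold lower than the SPF ethanol level, with 3 counts taken as the group's floor.

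Of the other members, the pseudogene Serpina3h, its neighbour Serpina3g and the next gene Serpina3i were also lower after MC903 in SPF skin. Serpina3h had 45.3, 45.8 and 34 CPM in GF MC903 libraries, against 114, 103 and 91.4 CPM in GF ethanol libraries. It had 7.81, 3.99 and 5.56 CPM in SPF MC903 libraries, against 57.5, 85.1 and 78.4 CPM in SPF ethanol libraries. The treatments did not overlap in either housing, and the log2 changes were -1.31 (SE 0.21) in GF skin and -3.67 (SE 0.23) in SPF skin. Serpina3g had 4.6, 3.53 and 3.52 CPM in GF MC903 libraries, against 9.82, 8.11 and 5.9 CPM in GF ethanol libraries. It had 1.37, 0.669 and 0.954 CPM in SPF MC903 libraries, against 3.44, 4.49 and 4.72 CPM in SPF ethanol libraries, with log2 changes of -1.03 (SE 0.24) in GF skin and -2.07 (SE 0.27) in SPF skin. The treatments of Serpina3g did not overlap in either housing.

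Serpina3i was placed differently by treatment in the 2 housings. It had 6.02, 5.7 and 6.24 CPM in GF MC903 libraries, against 4.93, 4.82 and 4.87 CPM in GF ethanol libraries. It had 2.05, 1.77 and 2.24 CPM in SPF MC903 libraries, against 3.42, 4 and 4.22 CPM in SPF ethanol libraries. The MC903 libraries were thus all above the ethanol libraries in GF skin and all below them in SPF skin, with log2 changes of 0.3 (SE 0.12) and -0.95 (SE 0.13). The GF value depended on the scaling and was -0.21 on library totals.

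Serpina3n was the member whose libraries were all higher after MC903 in both housings. It had 90.3, 74.2 and 93.2 CPM in GF MC903 libraries, against 52.8, 51 and 48.2 CPM in GF ethanol libraries. It had 71, 93.1 and 100 CPM in SPF MC903 libraries, against 35.6, 51.4 and 45.3 CPM in SPF ethanol libraries. The treatments did not overlap in either housing, and the log2 changes were 0.76 (SE 0.15) in GF skin and 1 (SE 0.15) in SPF skin. On library totals, which put the median gene at -0.58 in GF skin and -0.68 in SPF skin against -0.07 and -0.1 under TMM scaling, Serpina3n had 0.25 and 0.42. Serpina3c, a kallikrein-binding inhibitor, had log2 changes of -0.46 (SE 0.25) in GF skin and -0.47 (SE 0.25) in SPF skin, and -0.97 and -1.04 on library totals. Serpina3f and Serpina3m, at 7 to 48 counts per library, had 0.08 (SE 0.45) and 0.42 (SE 0.52) in GF skin and 0.93 (SE 0.46) and 0.22 (SE 0.49) in SPF skin. Of 9 tested members 6 passed an adjusted p of 0.05 in GF skin (2 higher, 4 lower), where 68.5% of all 16466 tested genes did, 33.4% higher and 35.1% lower. In SPF skin 6 passed (1 higher, 5 lower), where 73.8% of genes did, 35% higher and 38.8% lower. The libraries of the treatments did not overlap for 7 members in GF skin, as for 74.1% of genes (35.6% higher, 38.5% lower), and for 6 in SPF skin, as for 76.7% (35.8% higher, 40.9% lower). Nothing is read from these counts, since this difference chose the set.

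Markers of several skin cell types shifted along with these changes. Sebaceous gland markers summed to 3150 to 3690 CPM in GF MC903 skin and 6380 to 7050 CPM in GF ethanol skin, and to 2450 to 2960 CPM in SPF MC903 skin and 8610 to 9130 CPM in SPF ethanol skin. Of 10 sebaceous markers 3 were higher and 6 lower with MC903 in GF skin, and 2 higher and 7 lower in SPF skin. Hair follicle markers summed to 1200 to 1220 CPM in GF MC903 skin and 147 to 157 CPM in GF ethanol skin, and to 2350 to 3830 CPM in SPF MC903 skin and 118 to 132 CPM in SPF ethanol skin, with 3 of 10 higher and 1 lower in GF skin and 5 higher and 1 lower in SPF skin. T cell markers summed to 27 to 29.5 CPM in GF MC903 skin and 34.3 to 37.2 CPM in GF ethanol skin, and to 14 to 15.5 CPM in SPF MC903 skin and 32.5 to 36.7 CPM in SPF ethanol skin. Of 7 tested T cell markers 3 were lower in GF skin and 7 in SPF skin, and none was higher. In all 3 lists the MC903 and ethanol sums did not overlap in either housing. Other lists shifted as well, with all 8 skeletal muscle and all 8 Schwann cell markers lower in both housings. Of 10 fibroblast markers 8 were lower in each, with 1 higher in GF skin and 2 in SPF skin. Neutrophil markers summed to 77.7 to 137 CPM in GF MC903 skin and 4.81 to 9.76 CPM in GF ethanol skin. Their SPF sums were 63.7 to 66.9 CPM with MC903 and 6.18 to 8.07 CPM with ethanol. The part of any of these cell types in the changes of Serpina3 genes was not tested.

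**Figure D2:**
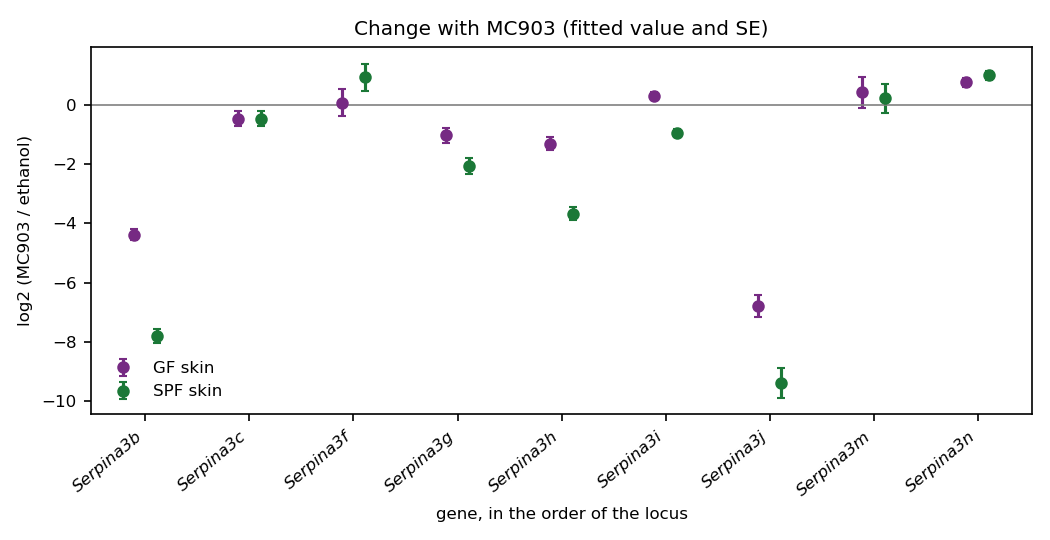
Fitted log2 change of MC903 against ethanol in GF and SPF skin for each tested Serpina3 gene in the order of the locus, with its standard error. Serpina3b, Serpina3h and Serpina3j lie lower in SPF than in GF skin, and Serpina3n lies above 0 in both.

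After MC903 germ-free skin held more RNA of 3 of the 7 tested members other than Serpina3b and Serpina3j, and none of the 7 passed as lower. Serpina3g, Serpina3h and Serpina3i were higher, against 41.7% of all tested genes that changed, 20.8% higher and 20.9% lower. The share of members called in either direction was thus near that of genes at large. The median of the 7 was -0.02 on the log2 scale and that of all genes 0.02. For the same 3 genes the GF MC903 and SPF MC903 libraries did not overlap, which held for 50.6% of all genes and for 25.3% with GF higher.

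Serpina3h, which was not picked for its own change, averaged 41.7 ± 6.67 CPM in GF MC903 skin and 5.79 ± 1.92 CPM in SPF MC903 skin, a log2 difference of 2.85 (SE 0.23, adjusted p = 3.2e-06) or 7.2-fold. Serpina3i averaged 5.99 ± 0.274 CPM in GF MC903 skin and 2.02 ± 0.233 CPM in SPF MC903 skin (log2 difference 1.57, SE 0.13, adjusted p = 4.9e-06). Serpina3g, the cathepsin inhibitor of immune cells, averaged 3.88 ± 0.619 CPM in GF MC903 skin and 0.999 ± 0.354 CPM in SPF MC903 skin (log2 difference 1.95, SE 0.27, adjusted p = 0.00014). These 3 genes are neighbours in the locus, with transcripts that are partly shared. The split of counts among them is therefore less certain, and whether they moved independently was not tested.

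Serpina3b averaged 7.99 ± 1.64 CPM in GF MC903 skin and 0.437 ± 0.114 CPM in SPF MC903 skin, a log2 difference of 4.18 (SE 0.24), and the libraries did not overlap. Serpina3j had 41 counts in all GF MC903 libraries and 4 in all SPF MC903 libraries, a log2 difference of 3.29 (SE 0.87). The ratio of pooled levels was 10.6 with a 95% exact interval of 3.82 to 40.6 for counting error, and without SPF MC903 library 3 the GF level was at least 10.2-fold higher. Without the 3 GF libraries whose strain label is not C57BL/6, a setting chosen after seeing the data, the fitted difference of Serpina3j was 2.13. No test is given for this pair, since the same MC903 libraries entered the differences for which they were picked.

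The 4 other tested members did not pass between housings after MC903. Serpina3n had 85.9 ± 10.2 CPM in GF MC903 skin and 88.2 ± 15.3 CPM in SPF MC903 skin, a log2 difference of -0.04 with a 95% interval of -0.35 to 0.28 (adjusted p = 0.86). Serpina3c had 5.01 ± 1.05 CPM in GF MC903 skin and 5.1 ± 1.48 CPM in SPF MC903 skin, a difference of -0.02 (95% interval -0.57 to 0.53, adjusted p = 0.96). For Serpina3f and Serpina3m the differences were -0.1 (95% interval -1.08 to 0.89) and -0.39 (95% interval -1.51 to 0.73), so a difference of 1 on the log2 scale was within the interval for each.

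**Figure D3:**
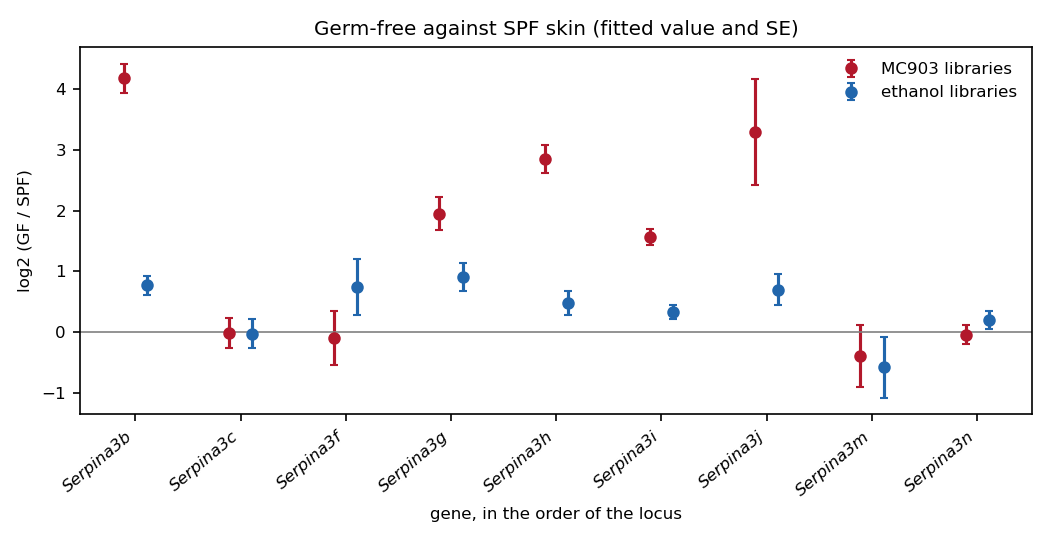
Fitted log2 difference between GF and SPF skin for each tested Serpina3 gene among MC903 libraries and among ethanol libraries, with its standard error. After MC903 Serpina3b lies at 4.18 and Serpina3n at -0.04, and with ethanol every member lies between -0.58 and 0.91.

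With ethanol 1 of the 7 members, Serpina3g, was higher in GF skin and none was lower, while 22% of all tested genes changed, 11.6% higher and 10.3% lower. The share of members called was thus not above that of genes at large. Serpina3g averaged 7.94 ± 1.97 CPM in GF ethanol skin and 4.22 ± 0.685 CPM in SPF ethanol skin (log2 difference 0.91, SE 0.23, adjusted p = 0.016). That call for Serpina3g was lost without SPF ethanol library 1, GF ethanol library 1 or GF ethanol library 4, with adjusted p of 0.061, 0.067 and 0.064 there and from 0.00081 to 0.067 over all settings tried.

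Serpina3h and Serpina3i did not pass with ethanol although their GF and SPF ethanol libraries did not overlap, as held for 43.9% of all genes and for 21.9% with GF higher. Serpina3h had 103 ± 11.5 CPM in GF ethanol skin and 73.7 ± 14.4 CPM in SPF ethanol skin, a log2 difference of 0.48 (95% interval 0.04 to 0.93, adjusted p = 0.11). It passed in limma voom (adjusted p = 0.033) and DESeq2 (0.038), within a range of 0.033 to 0.32. Serpina3i had 4.87 ± 0.0582 CPM in GF ethanol skin and 3.88 ± 0.415 CPM in SPF ethanol skin, a difference of 0.33 (adjusted p = 0.078). Serpina3n had 0.2 (95% interval -0.12 to 0.52), Serpina3c -0.03, Serpina3f 0.74 (95% interval -0.25 to 1.74) and Serpina3m -0.58 (95% interval -1.68 to 0.51). Serpina3f passed without SPF ethanol library 2 alone, at 1.53 (adjusted p = 0.034). Serpina3b, with no test, averaged 166 ± 26.1 CPM in GF ethanol skin and 97.4 ± 14.6 CPM in SPF ethanol skin, a log2 difference of 0.77 (SE 0.16). Serpina3j averaged 42.8 ± 4.07 CPM in GF ethanol skin and 26.4 ± 7.63 CPM in SPF ethanol skin, a difference of 0.7 (SE 0.25), and the GF and SPF ethanol libraries of neither gene overlapped.

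The response to MC903 differed between housings for Serpina3h and Serpina3i among the 7 tested members that were not picked for their own change. The split of counts among Serpina3g, Serpina3h and Serpina3i is less certain, as described above. The difference of the log2 changes, GF minus SPF, was 2.36 for Serpina3h (SE 0.3, adjusted p = 0.0004) and 1.24 for Serpina3i (SE 0.18, adjusted p = 0.00089), and 17% of all tested genes passed this test, 7.75% with the GF response the higher and 9.26% with it the lower. Serpina3g had 1.04 (SE 0.36, 95% interval 0.26 to 1.81) and did not pass (adjusted p = 0.067). It passed in DESeq2 (0.025) and without SPF MC903 library 1 (0.024) or GF ethanol library 1 (0.049), within 0.024 to 0.15 over all settings tried. Serpina3n had -0.24 (95% interval -0.69 to 0.21), Serpina3c 0.01 (95% interval -0.75 to 0.77), Serpina3f -0.84 (95% interval -2.24 to 0.56) and Serpina3m 0.19 (95% interval -1.37 to 1.76), and none of these passed. For Serpina3b and Serpina3j the difference was 3.41 and 2.59, given with no test because they were picked for their changes with MC903. That of Serpina3j rests on the 4 counts in SPF MC903 library 3. It was 6.4 without that library, where the SPF MC903 group had 0 counts, so the reads do not fix the size of that value.

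The make-up of Serpina3 RNA also differed by group. Summed over the 10 members, the level was 152 ± 7.23 CPM in GF MC903 skin, 104 ± 15.4 CPM in SPF MC903 skin, 383 ± 20.5 CPM in GF ethanol skin and 258 ± 11.5 CPM in SPF ethanol skin. The lower sum with MC903 was carried by Serpina3b, Serpina3h and Serpina3j, the members with the largest falls. Without these 3 genes the sum went the other way, with 90.6 to 108 CPM in GF MC903 libraries and 78.9 to 111 CPM in SPF MC903 libraries. The ethanol values were 66 to 76.4 CPM in GF libraries and 48.5 to 70.8 CPM in SPF libraries. Since the genes left out are those that fell most, nothing is read from that direction. The GF MC903 and SPF MC903 ranges of that remainder overlapped. Most of it was Serpina3n, with means of 85.9 CPM in GF MC903 skin and 88.2 CPM in SPF MC903 skin. With ethanol Serpina3n had 50.7 CPM in GF skin and 44.1 CPM in SPF skin. The means of Serpina3c and Serpina3g were lower with MC903 in both housings, and that of Serpina3i in SPF skin only. Those of the low Serpina3f and Serpina3m were higher with MC903. Per length, Serpina3n made up 55.7 ± 5.28% of the summed FPKM in GF MC903 skin and 83.5 ± 2.4% in SPF MC903 skin, against 13 ± 1.05% in GF ethanol skin and 16.7 ± 2.38% in SPF ethanol skin. Serpina3b made up 5.25 ± 1.23% in GF MC903 skin and 0.409 ± 0.105% in SPF MC903 skin, against 42.7 ± 4.85% in GF ethanol skin and 37.6 ± 7.51% in SPF ethanol skin. The share of Serpina3h was 27.6 ± 4.57% in GF MC903 skin and 5.82 ± 2.82% in SPF MC903 skin, against 27 ± 3.56% in GF ethanol skin and 28.4 ± 4.44% in SPF ethanol skin. The SPF MC903 libraries thus stood apart for Serpina3h, at 3.71 to 9.02%, while no library of the other 3 groups was under 22.6%. Shares of a total move together, since what one member loses the others gain.

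**Figure D4:**
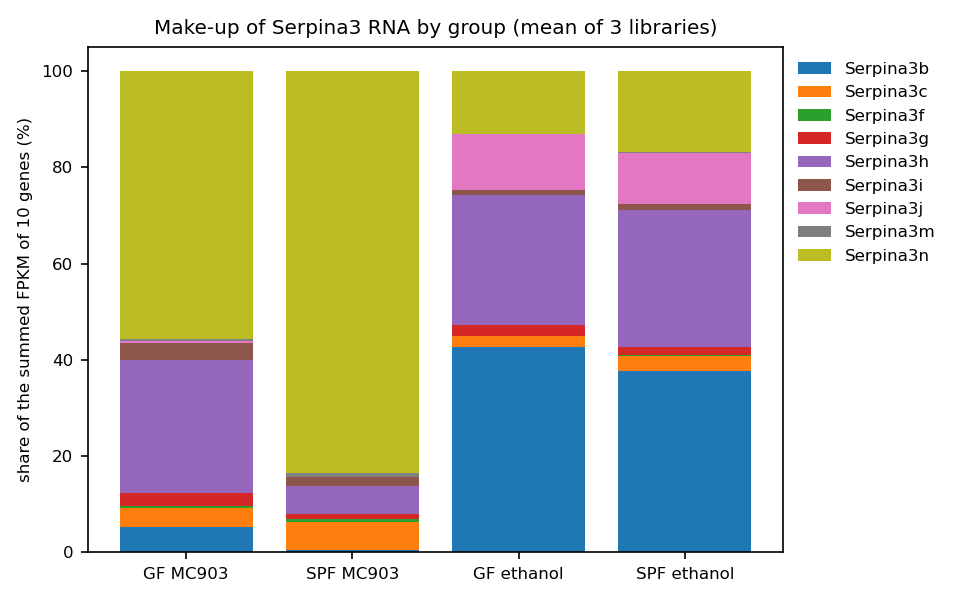
Mean share of each Serpina3 gene in the summed FPKM of the 10 genes, by group (3 libraries each). Serpina3n holds 55.7% in GF MC903 skin and 83.5% in SPF MC903 skin, and Serpina3b leads in both ethanol groups.

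Likeness of profile was measured as the root mean square difference of log2 CPM over the 12 libraries, each gene centred on its own mean, and is a description. Among members the closest pairs were Serpina3f and Serpina3n (0.53), Serpina3c and Serpina3m (0.54) and the neighbours Serpina3g and Serpina3h (0.61). Serpina3b and Serpina3j differed by 1.15. Outside the cluster the tested genes closest to Serpina3b were Skint7, an immunoglobulin-like gene of keratinocytes (0.65), the clade B serpin Serpinb1c (1.02), the Wnt ligand Wnt10b (1.25), the potassium channel gene Kcnj16 (1.31) and the transcription factor Mesp1 (1.35). Skint7 had a log2 change with MC903 of -3.09 in GF skin and -8.73 in SPF skin. Those closest to Serpina3j were Skint7 (1.52), the cytochrome P450 gene Cyp2g1 (1.55), Serpinb1c (1.72), Kcnj16 (1.82) and Evi2b (1.84).

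Listed serpins of clade A from outside the Serpina3 cluster did not share the direction of Serpina3b after MC903. Serpina3k, a gene of the cluster that is neither a member nor on that list, was lower. Its log2 changes were -4.53 in GF skin and -4.37 in SPF skin, at low counts. Of 14 listed genes 5 were tested, of which 4 were higher and none lower after MC903 in GF skin (median log2 change 2.93) and likewise in SPF skin (median 3.12), where Serpina9 had 4.9 and Serpina11 had 4.86. Between housings after MC903, 2 of the 5 were lower in GF skin and none higher, with Serpina9 at -0.77 (adjusted p = 0.0018). Listed proteases moved as follows, and whether serpins of this cluster inhibit each of them was not examined. Among 12 tested proteases of leukocytes and mast cells, 4 were higher and 1 lower in GF than in SPF skin after MC903, led by the granzyme Gzmc at 2.91 (adjusted p = 8.5e-05) and the basophil protease Prss34 at 1.52 (adjusted p = 0.003). Of 8 cysteine cathepsins and Mmp9, 2 were higher and 3 lower in GF MC903 skin, with Ctsl, which encodes cathepsin L, at -0.84 (adjusted p = 9e-06) and Ctsh at -0.73 (adjusted p = 4.9e-05).

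Among genes that share regulators known for this family, the acute phase and glucocorticoid lists gave mixed counts between housings after MC903. The interferon gamma list did not, and of all tested genes 20.8% were higher and 20.9% lower in GF MC903 skin. Of 21 tested acute phase and STAT3 target genes, 4 were higher and 2 lower in GF than in SPF skin after MC903, with Orm3 at 2.86 (adjusted p = 0.026) and Saa1 at 1.23 (adjusted p = 0.018). Of 12 glucocorticoid response genes 2 were higher and 1 lower, with the clock gene Per1 at 1.02 (adjusted p = 0.00054). Of 19 interferon gamma response genes 13 were higher and none lower in GF MC903 skin (median 0.7), led by the chemokine Cxcl10 at 2.76 (adjusted p = 6.8e-05), the immunoproteasome subunit Psmb9 at 1.38 (adjusted p = 5.1e-05) and the peptide transporter Tap1 at 1.27 (adjusted p = 1.4e-06). With ethanol 10 of the 19 were higher in GF skin and none lower (median 0.49), against 11.6% higher and 10.3% lower of all tested genes. T cell markers went with these values after MC903 but not with ethanol, where none of 7 passed between housings (median -0.03). Of 7 tested, 5 were higher and none lower in GF MC903 skin, and the summed level of 8 listed markers in the table was 27 to 29.5 CPM in GF MC903 skin and 14 to 15.5 CPM in SPF MC903 skin, with none at 0 in either. Sebaceous gland markers moved too, with 6 of 10 higher and 1 lower in GF MC903 skin and sums of 3150 to 3690 CPM in GF MC903 skin and 2450 to 2960 CPM in SPF MC903 skin. Skeletal muscle markers had 7 of 8 higher and none lower, with 1280 to 1310 CPM in GF MC903 skin and 872 to 908 CPM in SPF MC903 skin. The 9 measured markers of the granular layer summed to 48500 to 60200 CPM in GF MC903 skin and 22800 to 27200 CPM in SPF MC903 skin, with 3 higher and 3 lower. Hair follicle markers summed lower in GF skin, to 1200 to 1220 CPM in GF MC903 skin and 2350 to 3830 CPM in SPF MC903 skin, with 2 of 10 higher and 2 lower. Neutrophil markers summed to 77.7 to 137 CPM in GF MC903 skin and 63.7 to 66.9 CPM in SPF MC903 skin, with 1 of 6 tested higher and none lower. Of the markers in these lists 1, of neutrophils, was at 0 in SPF MC903 skin, and the part of these cell types, or of interferon, in the values of Serpina3 genes was not tested. Keratinocyte markers summed to 67400 to 70400 CPM in GF MC903 skin and 54200 to 66100 CPM in SPF MC903 skin.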

How the data were processed

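Skin RNA was isolated with Qiagen's fibrous tissue kit and sequenced as TruSeq libraries on a HiSeq4000, per the labels' protocols. HISAT2 2.1.0, StringTie 1.3.4d, Trimmomatic, bcl2fastq 2.20.0 and the build mm10 are listed in the submitters' processing notes, without order or settings. No source used here states strand use or the treatment of multiply mapped reads. For each gene and library the deposited table holds an estimated count and, per the file headers, an FPKM value computed by the authors. The estimated counts are whole numbers and were tested as deposited. FPKM values served for levels between genes.

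All 12 libraries were fitted in 1 edgeR 4.0.16 model (R 4.3.3) with a coefficient per group, TMM scaling, filterByExpr (minimum count 10, minimum total 15) and the quasi-likelihood test, with Benjamini-Hochberg adjustment over 16466 genes at 0.05. SE is the log2 change divided by the square root of the F statistic, and 95% intervals use it. Replicates differed by more than sampling noise (chi-square per degree of freedom 17.2 to 44.9). log2 CPM had a prior count of 2. Alternatives were library totals, no filter, 1 CPM in 3 libraries, limma 3.58.1 voom, DESeq2 1.42.0, each library left out and a replicate block, and, added after seeing the data, a fit without the 3 GF libraries labelled with another strain. The fit was also tested on simulated data.

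The members and the gene lists were chosen with earlier results of these data known. Named were all members, the 5 tested genes closest in profile to Serpina3b, which also had the highest mean CPM, and to Serpina3j, and genes among the 3 with the largest absolute log2 change of a list. Sequences and coordinates are from RefSeq's GRCm38.p6 tables, where 24462 of 24532 identifiers matched. Transcripts are from GENCODE M21. Depth limits Serpina3f, Serpina3j and Serpina3m, and count intervals cover counting error only.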

Additional observations from a re-analysis of the deposited data

Results flagged for a closer look

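The response of Serpina3h to MC903 differed between housings, by 2.36 on the log2 scale (GF minus SPF), with a change of -1.31 in GF skin and -3.67 in SPF skin (edgeR adjusted p = 0.0004, and 3.4e-15 to 0.007 over all settings tried). The response of Serpina3i differed by 1.24, with 0.3 in GF skin and -0.95 in SPF skin (adjusted p = 0.00089, and 1.5e-06 to 0.027 over all settings tried). In both genes all 3 GF MC903 libraries were above all 3 SPF MC903 libraries. The split of counts between them is less certain, since 218 of 1190 Serpina3h windows of 50 bases also occur in Serpina3i.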

How the results depend on the processing

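Of the 7 tested members other than Serpina3b and Serpina3j, 3 were called between housings after MC903 under every setting run. With ethanol 1 was called, 2 in limma voom and in DESeq2, and 0 to 2 when 1 library was left out. For the difference of responses 2 were called, and 2 to 3 over all settings. Counting all 9, where nothing is read from Serpina3b and Serpina3j, the calls with ethanol were 2, then 4 in limma voom and 1 to 3 with 1 library left out, and those for the difference of responses were 3, then 5 in DESeq2. Of all genes, 5652 to 6784 were called between housings after MC903 with 1 library left out, and 1475 to 3981 with ethanol. For the difference of responses 2129 to 2765 genes were called then, and 3429 in DESeq2. For MC903 against ethanol, a description, 6 members passed in each housing. When 1 library was left out, 5 to 6 passed in GF skin and 6 to 7 in SPF skin. The genes called then were 10371 to 11390 in GF skin and 11536 to 12244 in SPF skin. The change of Serpina3i in GF skin reversed to -0.21 on library totals, which move the median of all genes. With the replicate block, 6 members were called in GF skin, 7 in SPF skin and 3 for the difference of responses. The genes called with it were 11072, 11950 and 2303. No call for the difference of responses changed among the 7 members tested there. The labels do not say what a shared number means, and whether it marks 1 mouse was not settled by the data. The deviations of same-numbered libraries correlated between -0.02 and 0.14 in 6 pairs, so the fit without the block was kept. Over all genes, 3616 were called between housings with ethanol, and 1475 without GF ethanol library 4, 2333 without SPF ethanol library 3 and 2354 without SPF ethanol library 2. Without the 3 GF libraries with another strain label, 921 genes against 2800 were called for the difference of responses and 3910 against 6871 between housings after MC903. That setting leaves 1 GF MC903 library, assumed to vary like the other groups. On library totals, higher calls made up 22.4% against 48.8% of calls in GF skin and 23.6% against 47.4% in SPF skin for MC903, 59% against 45.6% for the difference of responses, and 39% against 52.9% between housings with ethanol. The cause of these shifts was not tested. Depth limits Serpina3j after MC903 and Serpina3f and Serpina3m throughout.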

Other observations

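Serpina3k, the gene between Serpina3j and Serpina3m in the locus, is not among the 10 members and was looked at after its values were seen. It summed to 2 counts in GF MC903 skin and 73 in GF ethanol skin, and to 2 counts in SPF MC903 skin and 68 in SPF ethanol skin. It shares 95 of the 100-base windows of the Serpina3m transcript.

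The start windows of Serpina3c and Serpina3n were 93.5% identical, while after MC903 the log2 changes of Serpina3n were 0.76 in GF skin and 1 in SPF skin and those of Serpina3c were -0.46 and -0.47.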
